A study of Rattus norvegicus with 14 samples.

Results

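The genes followed here encode the enzymes and carriers of fatty acid oxidation, the mitochondrial pathway that turns long-chain fatty acids into acetyl-CoA. A list of 33 genes was taken by pathway role and not by a cut on measured values, though with earlier results of these data known. Of these, 32 were measured among 13184 genes, and Acaa1a was not analysed here. They fall into 6 genes of the carnitine shuttle, 5 long-chain acyl-CoA synthetases, 14 beta-oxidation enzymes, 3 genes of electron transfer, and 4 genes of thioesterases and malonyl-CoA control. Acsl6, Acadsb, Ehhadh, Acot1 and Acacb were dim, with a mean below 6.23 on the log2 scale, the level that 30% of all genes lie under.

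The cells were neonatal rat ventricular myocytes, heart muscle cells put into culture from Sprague-Dawley rat pups aged 2 days, depleted of other cells by pre-plating and then held without serum. JQ1 is an inhibitor of BET bromodomain proteins, which bind acetylated chromatin, and DMSO is its vehicle. Phenylephrine (PE, 100 µM) stimulates adrenergic receptors, and cultured myocytes respond to it by growing in size. Unstimulated cells had DMSO for 90 min and no PE (3 arrays). After 6 h of PE there were 2 arrays with DMSO and 3 with JQ1, and after 48 h of PE there were 3 arrays of each. The unstimulated cells differ from the others in time in culture as well as in PE. No group received JQ1 without PE. The sources used here give no JQ1 concentration and differ on whether JQ1 or PE came first. The labels do not say that arrays of a group are separate cultures, so a p-value reflects array-to-array spread only, and this may be technical.

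A fatty acid is first joined to coenzyme A by an acyl-CoA synthetase. It crosses into the mitochondrion as a carnitine ester, through a carnitine palmitoyltransferase on the outer membrane (Cpt1a or Cpt1b), a translocase (Slc25a20) and a matrix transferase (Cpt2). The outer step is the main control point of the pathway and is inhibited by malonyl-CoA. Inside, repeated cycles of dehydrogenation, hydration, dehydrogenation and thiolysis shorten the chain, and the electrons pass through electron transfer flavoprotein to the respiratory chain. The adult heart draws most of its energy from this pathway, whereas the fetal and the hypertrophied heart rely more on glucose.

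The cells carried the markers of heart muscle. The 9 measured cardiomyocyte markers (Actc1 was not analysed here) had a mean log2 value between 13.31 and 13.55 on every array, and 3 of 4 liver markers were dim in every group. Fibroblast markers were present as well, with a mean of 11.50 to 11.52 over 9 genes in unstimulated cells and none of them dim there. The array medians lay between 7.28 and 7.43. They followed treatment, at 7.279 to 7.319 on the arrays with JQ1 and 7.365 to 7.43 on those without it. In bulk RNA, fewer cells of a type and less RNA per cell cannot be told apart. The median standard error of a log2 change was 0.060 between groups of 3 arrays and 0.068 where a group had 2.

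PE for 6 h lowered most genes of the pathway. Against unstimulated cells, 23 of 32 members fell and 6 rose in the limma fit with Benjamini-Hochberg adjustment over all genes at 0.05. The background was 18.9% of all genes lowered and 18.3% raised. The members' median log2 change was -0.297, against 0.013 for all genes. No carnitine shuttle or beta-oxidation gene rose. The members that rose were 3 synthetases, both thioesterases and Acacb. The count that rose was 2 without replicate 2 of DMSO with PE for 6 h, with Acsl3, Acot1, Acot2 and Acacb no longer called. Of 7 smooth muscle and pericyte markers, 4 rose and 2 fell at 6 h, with a mean log2 value of 9.26 to 9.34 unstimulated and 9.72 to 9.77 after PE for 6 h.

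PE for 48 h gave a smaller count with some larger changes. Here 19 members fell and 4 rose, with a background of 22.6% lowered and 21.4% raised. The members' median was -0.17, against 0.00585 for all genes. Acsl3, Acsl4, Crat and Acadm were the 4 that rose. Both PE comparisons use the same 3 unstimulated arrays, so they are not independent of each other. Of 9 fibroblast markers, 6 fell with PE at 48 h and 2 at 6 h, with a mean log2 value of 11.50 to 11.52 unstimulated and 11.18 to 11.21 at 48 h. Of 7 leukocyte markers 6 fell at 48 h, and of 7 smooth muscle and pericyte markers 5 rose. The part of these markers in the PE changes was not tested.

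**Figure D1:**
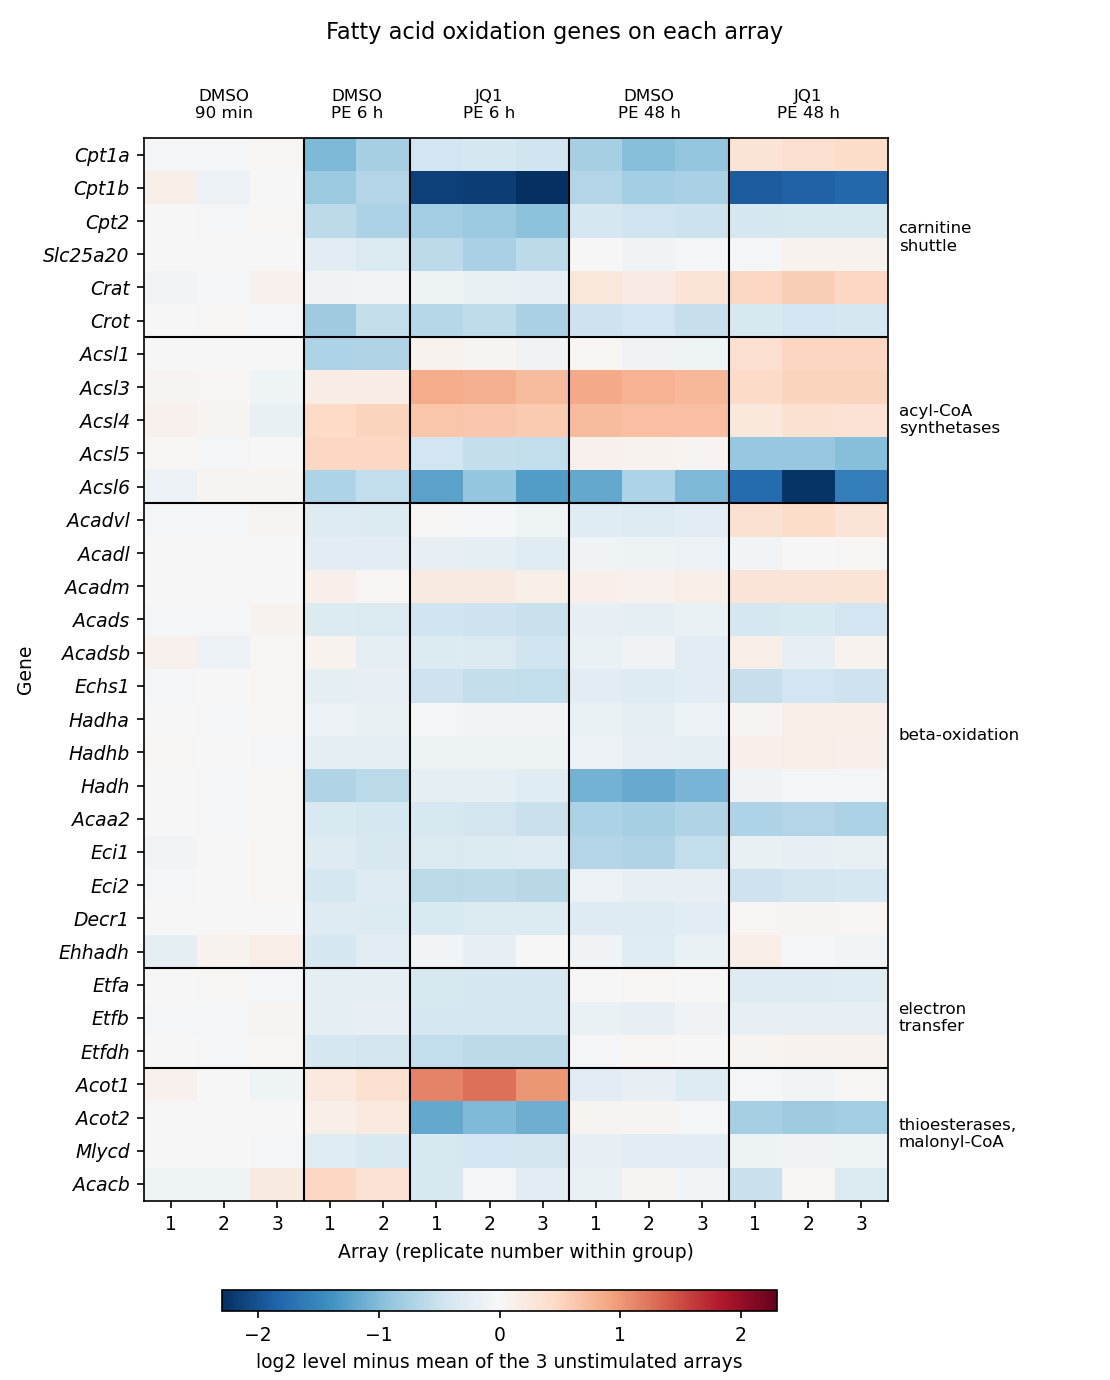
Each row is 1 of the 32 measured genes, ordered by step, and each column is 1 of the 14 arrays, ordered by group. Colour gives the log2 value minus the gene's mean in the 3 unstimulated arrays. Cpt1a turns from blue under PE to red on the 3 arrays of JQ1 with PE for 48 h, where its values were 10.80, 10.85 and 10.92, whereas Cpt1b stays blue.

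In the carnitine shuttle, both isoforms of the rate-limiting transferase fell with PE. Cpt1a encodes the isoform of liver and of the fetal heart, and Cpt1b that of muscle and of the adult heart. Cpt1a lies on chromosome 1 of the GRCr8 assembly, and the 250 bases before its RefSeq start, chr1:209995910-209996159 on the + strand, are shown because its response to JQ1 differed from that of Cpt1b. This window held neither of the 2 motifs searched there, on either strand. These were the GC box GGGCGG (the site of Sp-family factors) and the nuclear receptor half-site AGGTCA. Cpt1b had no matched window, so the windows of the 2 isoforms could not be compared.
Cpt1a: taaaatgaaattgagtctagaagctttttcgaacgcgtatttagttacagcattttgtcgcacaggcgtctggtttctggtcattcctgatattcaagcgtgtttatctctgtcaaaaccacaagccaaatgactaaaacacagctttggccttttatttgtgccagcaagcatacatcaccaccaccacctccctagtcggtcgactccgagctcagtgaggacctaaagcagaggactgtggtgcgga

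Cpt1a was at log2 10.47, 10.47 and 10.53 in unstimulated cells and at 9.46 and 9.72 after PE for 6 h. After PE for 48 h it was at 9.73, 9.51 and 9.59, so all 5 PE arrays lay below the unstimulated ones. The log2 change was -0.90 ± 0.075 (SE) at 6 h and -0.88 ± 0.067 at 48 h (limma, adjusted p = 1.54e-06 and 4.1e-07). These are falls of 1.86-fold and 1.84-fold. A dimmer second probe set of Cpt1a, with a mean of 6.48, was at -0.261 at 6 h (adjusted p = 0.0661, limma over all probe sets) and -0.375 at 48 h (adjusted p = 0.0051). The mean of both probe sets gave Cpt1a a 6 h change of -0.58.

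Cpt1b was at 10.35, 10.07 and 10.20 unstimulated, 9.36 and 9.53 after PE for 6 h and 9.54, 9.43 and 9.46 after 48 h. Here too the PE arrays did not overlap the unstimulated ones. Its change was -0.76 ± 0.082 and -0.73 ± 0.073 (adjusted p = 1.39e-05 and 4.84e-06). On single arrays the log2 ratio of Cpt1a to Cpt1b moved little with PE, by -0.14 at 6 h and -0.15 at 48 h relative to unstimulated cells.

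Cpt2, the matrix transferase, was at 10.31, 10.28 and 10.33 unstimulated, at 9.70 and 9.58 after PE for 6 h and at 9.90, 9.84 and 9.81 after 48 h. All PE arrays were lower than the unstimulated ones, and the 48 h arrays were all above the 6 h arrays. The changes were -0.67 ± 0.049 and -0.46 ± 0.044 (adjusted p = 4.49e-07 and 3.39e-06). Crot, the octanoyltransferase of peroxisomes, was at 9.85, 9.88 and 9.81 unstimulated, at 9.03 and 9.30 after PE for 6 h and at 9.37, 9.41 and 9.31 after 48 h. It fell by 1.61-fold at 6 h (adjusted p = 9.14e-06). At 48 h Crot was still lower, at -0.49 ± 0.063. The mean of its probe sets was at -0.437 and -0.267 for Crot. Slc25a20 fell at 6 h (-0.29 ± 0.055) and was at -0.039 ± 0.050 at 48 h (adjusted p = 0.574). Crat, which moves acetyl groups onto carnitine, did not pass at 6 h (-0.068 ± 0.056) and rose at 48 h (0.25 ± 0.050).

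The acyl-CoA synthetases went in different directions. Acsl1, the main isoform of the heart, was at 10.98, 10.98 and 10.99 unstimulated and 10.27 and 10.30 after PE for 6 h, a fall of 1.62-fold (limma, adjusted p = 1.54e-06). At 48 h it was at 11.03, 10.91 and 10.88, which overlaps the unstimulated arrays, and the change of -0.039 ± 0.052 did not pass (95% interval -0.152 to 0.075). Averaging its probe sets gave Acsl1 a 6 h change of -0.389. The fall of Acsl1 was thus seen at 6 h and not at 48 h.

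Acsl3, an isoform of the endoplasmic reticulum and lipid droplets, was at 9.49, 9.47 and 9.34 unstimulated, at 9.61 and 9.61 at 6 h and at 10.31, 10.24 and 10.19 at 48 h. Its 48 h arrays all lay above those of both other groups, with a rise of 1.76-fold (adjusted p = 7.13e-08). Acsl4, which prefers arachidonic acid, was at 10.48, 10.44 and 10.21 unstimulated, at 10.84 and 10.88 at 6 h and at 11.11, 11.07 and 11.06 at 48 h, with every PE array above the unstimulated ones. Its rise was 0.48 ± 0.068 at 6 h and 0.71 ± 0.060 at 48 h (adjusted p = 0.000115 and 1.22e-06).

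Acsl5 was at 11.12, 11.03 and 11.05 unstimulated, 11.54 and 11.54 at 6 h and 11.17, 11.15 and 11.13 at 48 h. It rose at 6 h (0.47 ± 0.049, adjusted p = 9.53e-06) and did not pass at 48 h, at 0.084 ± 0.044 (adjusted p = 0.147). Acsl6, a dim gene here, was at 6.62, 6.82 and 6.82 unstimulated, at 6.04 and 6.18 at 6 h and at 5.57, 6.04 and 5.72 at 48 h. Its changes were -0.64 ± 0.19 and -0.98 ± 0.17 (adjusted p = 0.0167 and 0.000412). All its PE arrays were lower than the unstimulated ones, but the 6 h call was lost without replicate 1 of DMSO with PE for 6 h (-0.572, adjusted p = 0.108).

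In the beta-oxidation cycle, 12 of 14 members fell at 6 h and 11 at 48 h. The largest fall was that of Hadh, the hydroxyacyl-CoA dehydrogenase for medium and short chains. The 250 bases before the starts of Hadh (chr2:222504447-222504696, - strand) and Hadha (chr6:31907551-31907800, + strand) are shown because Hadh moved most in this step while Hadha, which with Hadhb forms the trifunctional protein for long chains, moved little. Capitals mark the GC box GGGCGG on either strand, and AGGTCA would also have been capitalised.
Hadh: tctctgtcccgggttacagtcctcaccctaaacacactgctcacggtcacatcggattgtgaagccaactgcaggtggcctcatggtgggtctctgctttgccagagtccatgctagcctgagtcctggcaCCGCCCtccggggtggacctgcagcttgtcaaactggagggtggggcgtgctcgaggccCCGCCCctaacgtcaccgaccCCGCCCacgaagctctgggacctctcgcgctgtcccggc
Hadha: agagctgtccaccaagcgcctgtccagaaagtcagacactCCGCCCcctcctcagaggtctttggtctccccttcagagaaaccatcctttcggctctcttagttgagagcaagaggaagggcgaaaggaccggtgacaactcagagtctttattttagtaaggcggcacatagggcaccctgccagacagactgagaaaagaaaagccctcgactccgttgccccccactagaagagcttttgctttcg

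The Hadh window held 3 GC boxes, all read on the opposite strand as CCGCCC, and the Hadha window held 1. Hadha and Hadhb start 300 bases apart on chromosome 6, on opposite strands, so their windows overlap and the GC box of Hadha lies in both. RefSeq promoter windows of 250 bases matched 28 of the 32 measured members. Those of Cpt1b, Acadl, Acaa2 and Decr1 were not matched. The GC box was in 19 of the 28 windows (67.9%), against 30.5% of 33469 rat promoter windows of that length, with the shared box of Hadha and Hadhb counted in both. AGGTCA was in 4 (14.3%, against 14.1%), in Echs1, Eci1, Acadvl and Acacb. The direct repeat of AGGTCA, 2 copies in the same direction with any 1 base (N) between them, is the form bound by PPAR with RXR and overlaps the single half-site; it was in 0 of 28, against 0.0508% of all windows. CCAAT was in 11 (39.3%, against 34%), and CACGTG in 0, against 5.59%. All motifs were searched on both strands. The 33469 windows were not limited to measured genes or matched for base content, while each matched member had 1 window. What the higher share of GC boxes reflects was not tested.

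Hadh was at 11.25, 11.22 and 11.29 in unstimulated cells, 10.56 and 10.63 after PE for 6 h and 10.16, 10.09 and 10.19 after 48 h. The 3 groups did not overlap, and each was lower than the one before. The change was -0.66 ± 0.044 at 6 h and -1.11 ± 0.040 at 48 h (limma, adjusted p = 2.24e-07 and 7.31e-10), a 2.16-fold fall at the later time. The array has a second, dim probe set for Hadh, at 0.0929 and 0.00483 in these comparisons, and the mean of both gave changes of -0.282 and -0.552, both past the threshold.

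Acaa2, the matrix thiolase for medium chains, took the same course, at 11.38, 11.36 and 11.42 unstimulated, 11.03 and 10.99 at 6 h and 10.66, 10.63 and 10.70 at 48 h. It fell by 1.3-fold and then 1.65-fold against unstimulated cells (adjusted p = 3.58e-05 and 2.99e-08). Eci1, an isomerase needed for unsaturated chains, was at 11.49, 11.56 and 11.60 unstimulated, at 11.26 and 11.19 at 6 h and at 10.87, 10.86 and 10.98 at 48 h, again with 3 groups that did not overlap. Its changes were -0.33 ± 0.046 and -0.65 ± 0.041 (adjusted p = 0.00012 and 8.25e-08). Averaged over their probe sets, Acaa2 was at -0.233 and -0.448 and Eci1 at -0.381 at 48 h, all past the threshold.

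Acadvl, the very-long-chain dehydrogenase that opens the cycle, was at 10.33, 10.31 and 10.41 unstimulated, 10.05 and 10.04 at 6 h and 10.07, 10.06 and 10.11 at 48 h. All its PE arrays were lower, and the change was -0.30 ± 0.048 at 6 h and -0.27 ± 0.043 at 48 h (adjusted p = 0.000291 and 0.000228). The long-chain trifunctional protein changed less: Hadha by -0.15 ± 0.041 and -0.17 ± 0.037, and Hadhb by -0.22 ± 0.035 and -0.17 ± 0.032, all 4 past the threshold. Averaged with its dim probe sets, Hadha passed at neither time (-0.002 and -0.063). The log2 ratio of Hadha to Hadhb on single arrays moved by 0.07 at most from unstimulated cells in any of the 4 PE groups.

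The other falls in this step at 6 h were smaller than 1.5-fold. They were Acadl, Acads, Echs1, Eci2, Decr1 and Ehhadh, with changes between -0.35 (Eci2, an isomerase) and -0.21 (Echs1, the short-chain hydratase). At 48 h the first 5 of these were still lower, with changes between -0.28 (Decr1, a reductase of unsaturated chains) and -0.12 (Acadl, the long-chain dehydrogenase). Ehhadh, a peroxisomal bifunctional enzyme and a dim gene, no longer passed at 48 h (-0.16 ± 0.097). Acadm, the medium-chain dehydrogenase, was at 0.072 ± 0.038 at 6 h (adjusted p = 0.175) and rose at 48 h (0.11 ± 0.034). Acadsb, which acts in isoleucine breakdown, passed at neither time (-0.079 ± 0.11 and -0.17 ± 0.099).

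In electron transfer, all 3 genes fell at 6 h: Etfa by 1.16-fold, Etfb by 1.16-fold and Etfdh, which hands the electrons to ubiquinone, by 1.33-fold. At 48 h only Etfb of these 3 was lower (-0.15 ± 0.039), while Etfdh was at -0.0046 ± 0.033 with a 95% interval of -0.0758 to 0.0667.

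Among the thioesterases, which release the fatty acid from coenzyme A, Acot2 of the mitochondrion rose slightly at 6 h. It was at 9.13, 9.11 and 9.12 unstimulated, at 9.26 and 9.35 at 6 h and at 9.18, 9.18 and 9.09 at 48 h. The 6 h arrays were above the others, with a change of 0.18 ± 0.051 (adjusted p = 0.0139), which did not pass with the mean of all probe sets (0.045). Acot1 of the cytosol, a close relative in sequence and a dim gene, was at 4.28, 4.18 and 4.07 unstimulated, at 4.41 and 4.54 at 6 h and at 3.93, 3.98 and 3.88 at 48 h. It rose at 6 h (0.30 ± 0.076) and was lower at 48 h (-0.25 ± 0.068, adjusted p = 0.0104). Whether the 2 probe sets share signal was not tested.

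Mlycd, which breaks down malonyl-CoA, fell at both times (-0.31 ± 0.041 and -0.22 ± 0.037). Acacb, which makes malonyl-CoA at the mitochondrion, was dim throughout. It was at 4.13, 4.13 and 4.43 unstimulated, 4.71 and 4.56 at 6 h and 4.07, 4.29 and 4.16 at 48 h. Its 6 h change of 0.40 ± 0.15 lay at the threshold (adjusted p = 0.05), and that at 48 h was -0.058 ± 0.13.

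**Figure D2:**
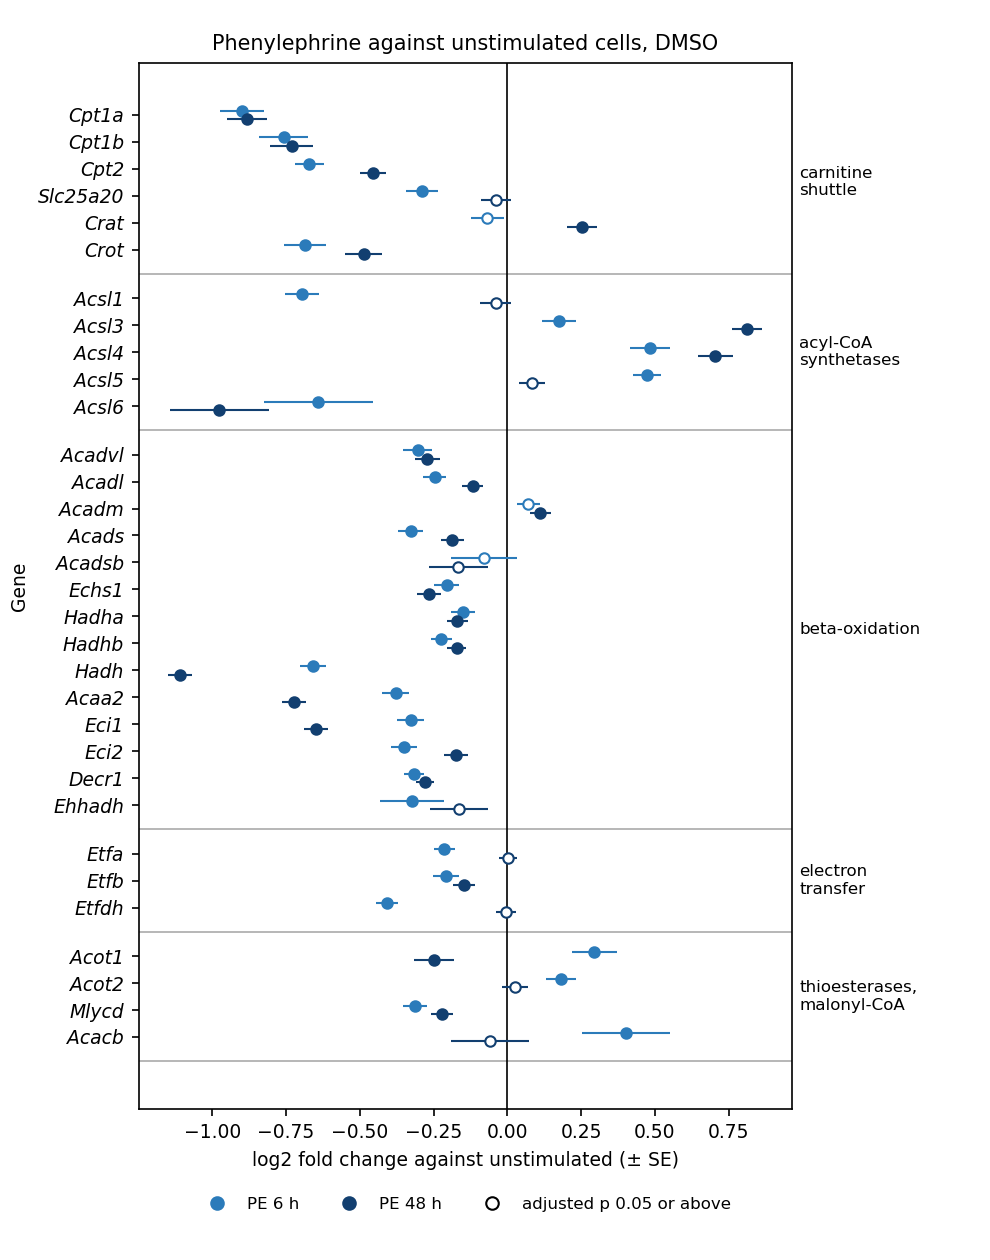
The log2 change of each member against unstimulated cells after PE for 6 h and for 48 h, in DMSO, with bars for 1 standard error, open circles for changes that did not pass and genes grouped by step. Most points lie to the left of 0. Hadh moves from -0.66 to -1.11 while Acsl1 returns from -0.70 to -0.039.

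Between 6 h and 48 h of PE, the members moved apart. Of the 32, 12 rose and 7 fell, with a background of 16.3% raised and 18.4% lowered. Without replicate 1 of DMSO with PE for 6 h, 7 rose. The genes that rose from the earlier to the later time included 4 of 6 carnitine shuttle genes and 2 of 3 electron transfer genes. Crat rose by 0.32 ± 0.056, Slc25a20 by 0.25 ± 0.055, Cpt2 by 0.22 ± 0.049 and Crot by 0.20 ± 0.070. Etfdh rose by 0.40 ± 0.037 (limma, adjusted p = 3.93e-06). The largest rises were those of Acsl1 (0.66 ± 0.058) and Acsl3 (0.64 ± 0.057).

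The 7 that fell from 6 h to 48 h were Hadh (-0.45 ± 0.044), Acaa2 (-0.34 ± 0.046), Eci1 (-0.32 ± 0.046), Acsl5 (-0.39 ± 0.049), Acot1 (-0.54 ± 0.076), Acacb (-0.46 ± 0.15) and Acot2 (-0.15 ± 0.051). With the mean of all probe sets, Acot2 was at 0.039 and Eci1 at -0.132, and neither passed. Hadh and Acaa2 were then at -0.269 and -0.215, and the rise of Crot (0.17) did not pass. Cpt1a and Cpt1b did not pass, with changes of 0.017 ± 0.075 and 0.028 ± 0.082. Their 95% intervals were -0.147 to 0.181 and -0.151 to 0.206. This comparison uses the same PE arrays as the 2 before it.

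JQ1 changed members in both directions. At PE 6 h, 8 of 32 rose and 14 fell against DMSO, with a background of 25.5% of all genes raised and 28.8% lowered. The members' median was -0.0752, against 0.000239 for all genes. With arrays centred on their medians, which moved all genes up by 0.085, 11 members rose and 7 fell, and the members' median was 0.00972. The raised share of all called genes was then 60.1%, against 47%. The calls lost were those of Cpt2, Acsl6, Acads, Acadsb, Etfa, Etfb and Etfdh, and Acsl4, Hadha and Ehhadh were gained. The share of members that rose was 25%, close to the background.

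At PE 48 h, 13 members rose with JQ1 and 10 fell, with a background of 30% raised and 29.6% lowered. The members' median was 0.0806, against 0.0171 for all genes. Centring the arrays moved all genes by 0.0884 and gave 19 raised and 10 lowered members, and 62.3% of all called genes raised against 50.4%. The share that fell, 31.2%, was close to the background. In the beta-oxidation cycle 8 of 14 rose and 3 fell, and among the synthetases 1 of 5 rose and 4 fell. Cpt1a, Hadh, Acsl1, Acadvl, Acadm, Hadhb and Acot1 rose with JQ1 at both times. Cpt1b, Acsl5, Acsl6, Acot2, Acads, Echs1, Eci2 and Etfa fell at both.

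Markers of other cell types moved with JQ1. At PE 48 h all 9 fibroblast markers fell, with a median change of -1.32, and their mean log2 value lay between 11.18 and 11.21 on the DMSO arrays and between 9.92 and 9.95 on the JQ1 arrays. At 6 h, 7 of 9 fell, and the mean value was 11.47 to 11.50 in DMSO and 10.99 to 11 in JQ1. All 7 smooth muscle and pericyte markers fell at 48 h and 6 of 7 at 6 h. The cardiomyocyte markers' mean was 13.54 to 13.55 in DMSO and 13.31 to 13.34 in JQ1 at 48 h, with 3 of 9 raised and 4 lowered. Of 7 endothelial markers, 4 or 5 were dim in each group, and 3 of 7 leukocyte markers fell at 48 h. The part of these markers in the members' changes was not tested.

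**Figure D3:**
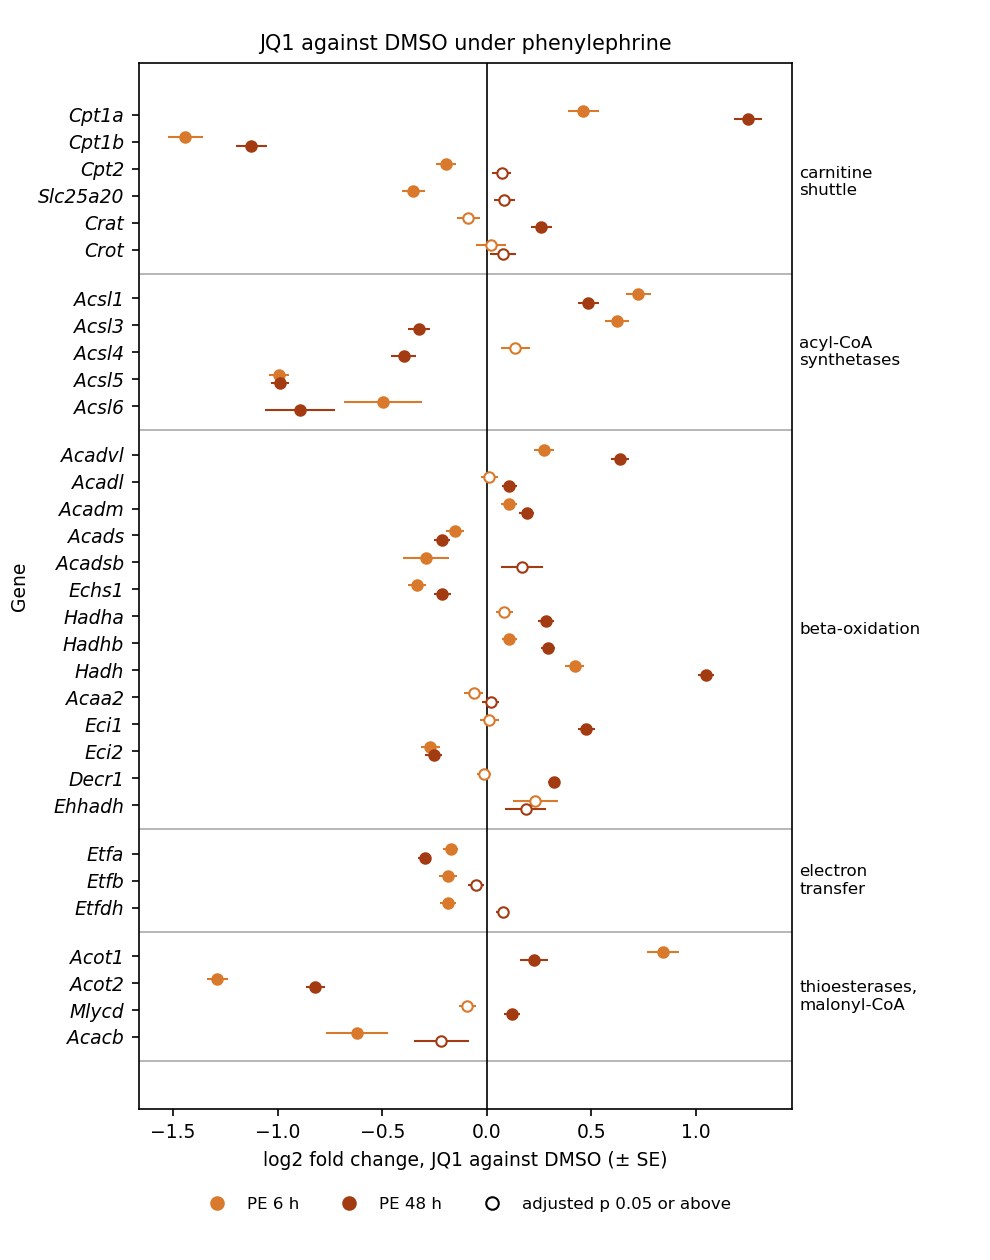
The log2 change of each member with JQ1 against DMSO at PE 6 h and at PE 48 h, with bars for 1 standard error, open circles for changes that did not pass and genes grouped by step. Points to the right are higher with JQ1. Cpt1a reaches 1.25 and Hadh 1.05 at 48 h, while Cpt1b lies at -1.44 and -1.13.

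The 2 isoforms of the rate-limiting transferase went opposite ways with JQ1. At PE 6 h, Cpt1a was at 10.05, 10.08 and 10.03 with JQ1, all above the DMSO arrays at 9.46 and 9.72. At PE 48 h it was at 10.80, 10.85 and 10.92 with JQ1 against 9.73, 9.51 and 9.59, and these JQ1 arrays also lay above every unstimulated array. The rise was 1.38-fold at 6 h (0.46 ± 0.075, limma, adjusted p = 0.000183) and 2.38-fold at 48 h (1.25 ± 0.067, adjusted p = 5.05e-09). The second probe set of Cpt1a was at 0.136 at 6 h (adjusted p = 0.301, limma over all probe sets) and rose by 0.653 at 48 h (adjusted p = 3.65e-05). Averaged over both, Cpt1a rose by 0.299 at 6 h (adjusted p = 0.00165) and by 0.952 at 48 h.

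Cpt1b with JQ1 was at 8.06, 8.05 and 7.90 at PE 6 h and 8.29, 8.35 and 8.4 at PE 48 h, below every array of the other 3 groups. The fall was 2.72-fold (-1.44 ± 0.082, limma, adjusted p = 1.71e-08) and 2.18-fold (-1.13 ± 0.073, adjusted p = 2.92e-08). The log2 ratio of Cpt1a to Cpt1b on single arrays was higher than in unstimulated cells by 1.76 with JQ1 at PE 6 h and by 2.22 at PE 48 h. It ran from 1.98 to 2.13 and from 2.50 to 2.52 on those arrays, and from 0.08 to 0.40 over the 8 arrays without JQ1. The ratio of signals of 2 probe sets is not a ratio of transcripts, and only its change between arrays is used.

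**Figure D4:**
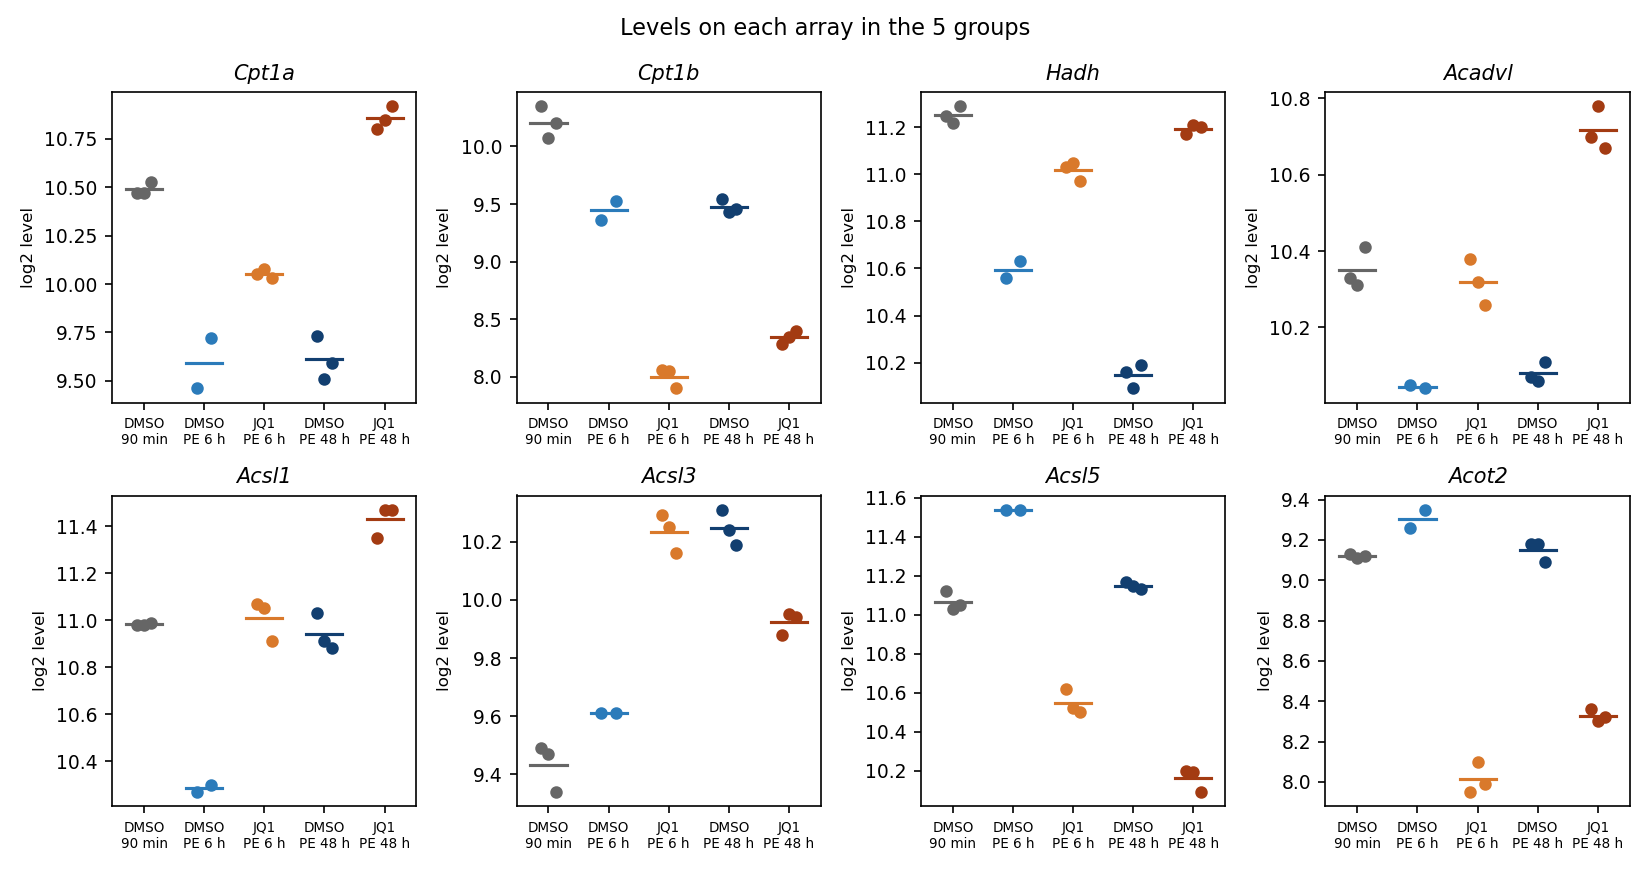
The log2 value on every array (points) for 8 members, by group, with a line for the group mean and an axis range of its own in each panel. In the panel of Cpt1a the 3 arrays of JQ1 with PE for 48 h are the highest, and in that of Cpt1b the 6 arrays with JQ1 are the lowest.

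The rest of the shuttle changed less. Cpt2 was at 9.50, 9.45 and 9.37 with JQ1 at PE 6 h, below the DMSO arrays (-0.19 ± 0.049), and at 9.90, 9.93 and 9.94 at 48 h, overlapping them (0.07 ± 0.044). Crot was at 9.19, 9.26 and 9.10 with JQ1 at 6 h and 9.48, 9.41 and 9.44 at 48 h, overlapping DMSO at both times, and its changes of 0.02 ± 0.070 and 0.078 ± 0.063 did not pass. Slc25a20 fell at 6 h (-0.35 ± 0.055) and was at 0.083 ± 0.050 at 48 h. Crat was at -0.088 ± 0.056 at 6 h and rose at 48 h (0.26 ± 0.050).

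Among the synthetases, Acsl1 rose with JQ1. It was at 11.07, 11.05 and 10.91 against 10.27 and 10.30 in DMSO at PE 6 h, and at 11.35, 11.47 and 11.47 against 11.03, 10.91 and 10.88 at 48 h. Neither pair of groups overlapped, and the rise was 1.65-fold and 1.4-fold (limma, adjusted p = 3.77e-07 and 3.3e-06). Averaging its probe sets gave Acsl1 a 48 h change of 0.288. Acsl5 fell by 1.99-fold at both times, to 10.62, 10.52 and 10.50 at 6 h and 10.20, 10.19 and 10.09 at 48 h. Every JQ1 array of Acsl5 lay below every array without JQ1 (adjusted p = 4.92e-09 and 7.97e-10).

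The JQ1 effect on Acsl3 turned with time. With JQ1, Acsl3 was at 10.29, 10.25 and 10.16 at PE 6 h, above the DMSO arrays (0.62 ± 0.057, adjusted p = 1.13e-06), and at 9.88, 9.95 and 9.94 at 48 h, below them (-0.32 ± 0.051, adjusted p = 0.000104). Acsl4 was at 11.02, 11 and 10.97 at 6 h (0.14 ± 0.068, adjusted p = 0.11) and at 10.62, 10.72 and 10.71 at 48 h, where it was lower than DMSO (-0.40 ± 0.060). Acsl6 was dim, at 5.52, 5.87 and 5.46 at 6 h and at 4.98, 4.50 and 5.17 at 48 h, and fell at both times (-0.50 ± 0.19 and -0.89 ± 0.17).

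In the beta-oxidation cycle, Hadh rose with JQ1 at both times. At PE 6 h it was at 11.03, 11.05 and 10.97 against 10.56 and 10.63 in DMSO, and at PE 48 h at 11.17, 11.21 and 11.20 against 10.16, 10.09 and 10.19. The groups did not overlap, and the rise was 1.34-fold and then 2.07-fold (limma, adjusted p = 4.34e-06 and 2.01e-10). Averaged with its dim probe set, the change of Hadh was 0.19 at 6 h, which did not pass (adjusted p = 0.089), and 0.58 at 48 h (adjusted p = 2.63e-05). The JQ1 arrays at 48 h lay just below the unstimulated ones, with a difference of -0.06 ± 0.040 that did not pass and a 95% interval of -0.147 to 0.0266.

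Acadvl rose to 10.38, 10.32 and 10.26 at 6 h and 10.70, 10.78 and 10.67 at 48 h, a change of 0.27 ± 0.048 and 0.64 ± 0.043 (adjusted p = 0.00033 and 4.1e-08). Its 48 h arrays with JQ1 lay above every other array. Eci1 was at 11.21, 11.23 and 11.26 at 6 h, overlapping DMSO, and at 11.38, 11.37 and 11.38 at 48 h, above all DMSO arrays of that time (0.48 ± 0.041, adjusted p = 4.48e-07). This call of Eci1 was lost with the mean of both probe sets (0.16, adjusted p = 0.0871). Acaa2 was at 11.01, 10.96 and 10.87 at 6 h and at 10.67, 10.72 and 10.65 at 48 h, overlapping DMSO at both times, and passed at neither (-0.062 ± 0.046 and 0.019 ± 0.041). With the mean of all probe sets it was lower at 48 h (-0.182, adjusted p = 0.012).

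The remaining members of the cycle that rose at 48 h were Acadl, Acadm, Hadha, Hadhb and Decr1, with changes between 0.11 and 0.32. Hadha was at 0.162 with the mean of its probe sets. Echs1, Eci2 and Acads fell at both times. Their changes were -0.33 ± 0.044, -0.27 ± 0.045 and -0.15 ± 0.043 at 6 h and -0.21 ± 0.039, -0.25 ± 0.041 and -0.21 ± 0.039 at 48 h. The call of Acads at 6 h was lost with arrays centred, as was that of Acadsb (-0.29 ± 0.11). Acadm and Hadhb also rose at 6 h (0.11 ± 0.038 and 0.11 ± 0.035). The changes of Acadl, Hadha, Decr1 and Ehhadh at 6 h did not pass, and neither did those of Acadsb and Ehhadh at 48 h.

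In electron transfer, Etfa, Etfb and Etfdh fell at 6 h with JQ1, by 1.13-fold, 1.14-fold and 1.14-fold, and all 3 of these calls were lost with arrays centred. At 48 h Etfa fell (-0.30 ± 0.031), and Etfb (-0.051 ± 0.039) and Etfdh (0.075 ± 0.033) did not pass.

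At PE 6 h Acot2 had the largest fall of a member with JQ1 after Cpt1b. It was at 7.95, 8.10 and 7.99 at PE 6 h and 8.36, 8.30 and 8.32 at 48 h, below every array without JQ1, with falls of 2.44-fold and 1.77-fold (limma, adjusted p = 8.33e-10 and 6.47e-09). Acot1, dim in every group, was at 5.32, 5.44 and 5.19 at 6 h and at 4.15, 4.11 and 4.21 at 48 h. It was higher than DMSO at both times (0.84 ± 0.076 and 0.23 ± 0.068), opposite to Acot2.

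Acacb was at 3.87, 4.20 and 3.97 at 6 h, a change of -0.62 ± 0.15 (adjusted p = 0.00314), and at 3.72, 4.25 and 3.90 at 48 h, where the change of -0.22 ± 0.13 did not pass. Mlycd was at -0.093 ± 0.041 at 6 h and rose at 48 h (0.12 ± 0.037).

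The effect of JQ1 was more positive at 48 h than at 6 h for 15 members and more negative for 4, by a test of the difference between the 2 effects in the same fit. The background was 20.4% of all genes raised and 18.3% lowered. In the carnitine shuttle 5 of 6 genes and in the cycle 7 of 14 had the more positive effect, and none in either step the more negative one. The difference was 0.79 ± 0.10 for Cpt1a (limma, adjusted p = 5.13e-05), 0.63 ± 0.060 for Hadh (adjusted p = 4.42e-06) and 0.46 ± 0.062 for Eci1 (adjusted p = 6.95e-05). When all probe sets were averaged the difference was 0.39 for Hadh (adjusted p = 0.02), and the calls of Eci1 (0.058), Hadha (0.067) and Acot2 (0.191) were lost. The calls of Cpt1b, Acsl1 and Acadsb were each lost when 1 of several arrays was left out, so 13 of the 19 were kept under all alternatives run. The 4 with the more negative effect were Acsl3 (-0.95 ± 0.076), Acot1 (-0.62 ± 0.10), Acsl4 (-0.54 ± 0.091) and Acsl1 (-0.24 ± 0.078). For Acsl5 the difference was 0.0047 ± 0.066, which did not pass, with a 95% interval of -0.138 to 0.147.

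Cells given both JQ1 and PE were also set against unstimulated cells, a comparison that shares arrays with those above. At PE 6 h, 23 members were lower and 4 higher, with a background of 31.7% lowered and 30.9% raised. All 6 carnitine shuttle genes and all 3 electron transfer genes were among the lower ones. With arrays centred, 21 were lower and 4 higher, and 61.2% of all called genes were higher against 49.3%. Cpt1b differed most, by -2.20 ± 0.073, or 4.59-fold (limma, adjusted p = 5.45e-11). Averaged over their probe sets Cpt1a was at -0.282 and Crot at -0.357, and the calls of Hadh (-0.093) and Eci1 (-0.146) were lost. Acsl1 (0.029 ± 0.052) and Acadvl (-0.031 ± 0.043) did not pass.

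At PE 48 h with JQ1, 14 members were lower than in unstimulated cells and 9 higher, with a background of 29.2% lowered and 31.6% raised. Centring the arrays moved all genes by 0.101 and gave 12 lower and 12 higher, with the members' median at 0.0592 in place of -0.0415, and 65.5% of all called genes higher against 52%. Cpt1a was then above unstimulated cells (0.37 ± 0.067, adjusted p = 0.000381), as were Crat (0.51 ± 0.050), Acsl1 (0.45 ± 0.052) and Acadvl (0.36 ± 0.043). Cpt1b (-1.86 ± 0.073), Acsl6 (-1.87 ± 0.17), Acsl5 (-0.91 ± 0.044) and Acaa2 (-0.70 ± 0.041) stayed lower. Mlycd was at -0.10 and, with arrays centred, at 0.001. With the mean of all probe sets the calls of Crot (-0.134) and Hadha (0.099) were lost.

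Genes that supply or control the pathway, or belong to neighbouring pathways, were followed in 7 lists with 94 measured genes outside the 32 members. At PE 6 h, 50 of the 94 fell and 10 rose, and at PE 48 h 38 fell and 21 rose. With JQ1, 38 fell and 18 rose at 6 h, and 35 fell and 29 rose at 48 h. The backgrounds given above for each comparison hold here too.

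Among 20 regulators, PE lowered 8 and raised 3 at 6 h, and lowered 10 and raised 2 at 48 h. Ppargc1a, a coactivator that drives mitochondrial genes, fell at 6 h (-1.43 ± 0.27, adjusted p = 0.00111) and at 48 h (-1.15 ± 0.24). With JQ1 at 6 h it was lower still (adjusted p = 1.08e-05), at a mean of 5.26, which is below the dim limit of 6.23, so no fold is given. At 48 h it did not pass (0.21 ± 0.24). Its mean log2 value was 9 in unstimulated cells, 7.57 and 5.26 at PE 6 h without and with JQ1, and 7.85 and 8.06 at PE 48 h. The JQ1 effect on Ppargc1a differed between the times (limma, adjusted p = 0.000133), and this difference too includes the dim group.

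Rxrg, the gamma member of the retinoid X receptors that pair with PPARs, fell with PE at 6 h (-1.06 ± 0.086). It fell with JQ1 at 6 h (-1.46 ± 0.086) and 48 h (-0.97 ± 0.077). The mean of Rxrg with JQ1 was 5.7 at PE 6 h and 6.18 at PE 48 h, both below the dim limit. Perm1, a muscle regulator induced by Ppargc1a, rose with PE at 6 h (0.79 ± 0.076) and was lower at 48 h (-0.32 ± 0.068). It fell with JQ1 at both times (-2.44 ± 0.076 and -1.77 ± 0.068). Its mean with JQ1 at PE 48 h was 6.19, also below the dim limit. Klf15 fell with PE at 6 h (-0.57 ± 0.074) and rose with JQ1 at 48 h (0.85 ± 0.066). Ppara, the receptor that senses fatty acids, was dim and passed in none of the 4 comparisons (-0.11 ± 0.17, 0.17 ± 0.15, 0.0033 ± 0.17 and -0.13 ± 0.15). Esrra, an orphan receptor that drives the same genes, was at 0.13 ± 0.048 at PE 6 h and fell with JQ1 at 6 h (-0.30 ± 0.048).

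Among 12 genes of uptake and carnitine supply, 5 fell and 4 rose at PE 6 h. Cd36, which takes up fatty acids at the membrane, fell with PE at both times (-0.60 ± 0.12 and -0.80 ± 0.11). JQ1 lowered it at 6 h (-1.06 ± 0.12), and at 48 h it was at -0.26 ± 0.11 (adjusted p = 0.0501). Slc27a4, a fatty acid transport protein, rose with PE at 6 h (0.64 ± 0.053). Fabp5, a fatty acid binding protein, fell with JQ1 at 48 h (-1.14 ± 0.038), where 5 of the 12 fell and 3 rose. Slc22a5, the carnitine transporter, was at -0.01 ± 0.073 with PE at 6 h and rose with JQ1 at 6 h (0.37 ± 0.073).

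Of 11 peroxisomal genes, 7 fell and 1 rose at PE 6 h. Ech1, an isomerase of unsaturated chains, fell with PE at 6 h and 48 h (-0.77 ± 0.047 and -1.01 ± 0.042) and with JQ1 at 6 h (-0.90 ± 0.047). Pecr, a reductase of unsaturated chains, fell with PE (-0.80 ± 0.053 and -0.84 ± 0.047). Amacr, a racemase of branched chains, rose with JQ1 at both times (1.17 ± 0.037 and 1.30 ± 0.033).

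Of 19 further mitochondrial genes, 13 fell and 1 rose at PE 6 h. Hibch, of valine breakdown, had the smallest adjusted p (-0.65 ± 0.055), and Acot9, another thioesterase, rose (0.34 ± 0.041) and fell with JQ1 at 48 h (-0.69 ± 0.037). Of 3 ketone body genes, Bdh1, the hydroxybutyrate dehydrogenase, rose with PE at 48 h (0.99 ± 0.051) and fell with JQ1 at 48 h (-1.63 ± 0.051).

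Of 14 genes of fuel choice, 6 fell and none rose at PE 6 h. Pdk4 and Pdk2, kinases that shut off pyruvate oxidation, fell by 2.08-fold and 2.2-fold (limma, adjusted p = 1.23e-06 and 5.69e-09). At 48 h Pdk4 was at 0.081 ± 0.077, and JQ1 raised it at 48 h (1.01 ± 0.077) but not at 6 h (0.048 ± 0.087). Of 15 tricarboxylic acid cycle genes, 10 fell and none rose at PE 6 h, the largest fall being that of Sucla2 (-0.27 ± 0.036). At 48 h 4 fell and 4 rose. JQ1 lowered 6 of them and raised 1 at 6 h. At 48 h it raised 1 and lowered 10, with Idh3b at -0.56 ± 0.031.

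The members had 13 further probe sets, of which 6 were not dim. These were compared with the gene's brightest probe set in the PE comparisons and in JQ1 against DMSO, only where the brightest one passed. Of these 22 changes, 14 had the same direction and passed, 7 had the same direction without passing, and 1 had the opposite direction without passing. Changes where the brightest probe set did not pass were not counted. With JQ1 at PE 48 h, the other probe set of Acaa2 fell (-0.383, adjusted p = 0.00476, limma over all probe sets), against 0.0188 for the brightest. With PE for 48 h, that of Acsl5 rose (0.189, adjusted p = 0.0228, same test), against 0.0836 for the brightest.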

How the data were processed

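Total RNA of 14 samples of cultured rat myocytes was measured on Affymetrix rat arrays, per the labels. The deposited table holds log2 expression for each probe set, and the like distributions of the arrays point to normalization by the authors. The submitters' processing notes list limma, with no role. How probes were summarized and normalized is not given in the sources used here. An array has no read depth; the number of arrays limits the precision.

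Of 20223 probe sets, 18510 had 1 symbol, 305 several, 1402 none and 6 were controls. Symbols were updated through the RefSeq gene table of GRCr8 (18461 matched by gene identifier). The brightest probe set of each gene was kept (13184 genes). All arrays entered 1 model with 5 group means, using limma 3.58.1 (lmFit, then eBayes) under R 4.3.3, which left 9 residual degrees of freedom. Two-sided p-values were adjusted by Benjamini-Hochberg over all genes, with a threshold of 0.05. The script was tested on simulated data.

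The members and lists were chosen with earlier results of these data known. Values on every array are given for members past the threshold with a log2 change of at least 0.5 in size in any of the first 5 comparisons, and for Cpt1a and Cpt1b. Of the other genes, Ppara, Ppargc1a, Esrra, Pdk4, Slc22a5 and Cd36 are named whatever their values, and the others are drawn, list by list and comparison by comparison, from the 2 with the smallest adjusted p in the direction of most calls and the 1 in the other direction. Not all of these are printed. Promoter sequences are those of RefSeq (GRCr8).

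The alternatives were the mean of all probe sets, no dim genes, arrays centred on their medians, repeated quantile normalization, a trended robust prior, array weights, a replicate block, fits of the compared groups alone, and each array left out.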

Additional observations from a re-analysis of the deposited data

Results flagged for a closer look

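The effect of JQ1 differed between PE 48 h and PE 6 h for 19 members, by a limma test of the difference between the 2 effects on the log2 scale. Positive values are effects that were more positive at 48 h. In the carnitine shuttle these were Cpt1a (0.79), Slc25a20 (0.44), Crat (0.35), Cpt1b (0.32) and Cpt2 (0.27). Cpt1a rose with JQ1 at both times and Cpt1b fell at both, less so at 48 h. In the beta-oxidation cycle they were Hadh (0.63), Eci1 (0.46), Acadsb (0.46), Acadvl (0.36), Decr1 (0.33), Hadha (0.20) and Hadhb (0.19). Etfdh (0.26), Acot2 (0.47) and Mlycd (0.21) also had positive differences. With the mean of all probe sets the calls of Eci1 (0.058), Hadha (0.067) and Acot2 (0.191) were lost. In DMSO with PE for 6 h, leaving out replicate 2 lost the call of Cpt1b (0.234) and leaving out replicate 1 that of Acadsb (0.309). Both calls were also lost without several single arrays of other groups.

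Negative differences were found for Acsl3 (-0.95), Acot1 (-0.62), Acsl4 (-0.54) and Acsl1 (-0.24). Acsl3 rose with JQ1 at 6 h and fell at 48 h, past the threshold at both times. The call of Acsl1 was lost without either array of DMSO with PE for 6 h (-0.220 and -0.258) and without several other single arrays. The early effect rests on only 2 arrays of DMSO with PE for 6 h. Groups of 2 or 3 arrays are too small for a test of single outlying arrays.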

How the results depend on the processing

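Over the first 5 comparisons the members had 115 calls, of which 85 stayed past the threshold in the same direction under every alternative run. Of the 32 with a log2 change of at least 0.5 in size, 31 did. The exception was Acsl6 at PE 6 h, which was not called without replicate 1 of DMSO with PE for 6 h. Of the 19 differences between the JQ1 effects, 13 stayed. With arrays centred on their medians, 7 members fell with JQ1 at PE 6 h, against 14. Leaving out 1 array in turn gave 2 to 5 members raised at PE 6 h, against 6, and 7 to 11 raised from PE 6 h to 48 h, against 12. With DMSO at PE 6 h down to 1 array, that array was assumed to vary like the other groups. Other counts of members stayed within 1.5 times the reported ones under the alternatives run.

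Signs turned for Acot2 from PE 6 h to 48 h (0.039 with the mean of all probe sets), for Acaa2 with JQ1 at PE 48 h (-0.182, same setting; not called in the reported fit) and for Mlycd in JQ1 with PE for 48 h against unstimulated cells (0.001 with arrays centred). The cause was not tested. Same-numbered arrays of different groups did not deviate together (median correlation -0.0369 over 26 pairs, against 0.0182 for other pairs). With the replicate number as a block, 22 members fell and 6 rose at PE 6 h, 19 fell and 4 rose at PE 48 h, and JQ1 lowered 13 and raised 7 at 6 h and lowered 10 and raised 13 at 48 h. Of 14 arrays, 2 correlated best with their own number. Dim genes lie near the background of the array, which limits Acsl6, Acadsb, Ehhadh, Acot1 and Acacb.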
